A study of Mus musculus with 12 samples.

Results

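Trimethylation of histone H3 at lysine 4 (H3K4me3) was mapped by chromatin immunoprecipitation and sequencing in mouse back skin, and the peaks described here are those that lay at an end of a single gene. A peak was taken when its midpoint was within 1000 bp of a start or an end of exactly 1 protein-coding gene of the mm10 RefSeq gene table. This rule took 2661 of the 5464 H3K4me3 peaks, or 48.7% (exact Clopper-Pearson 95% interval 47.4 to 50%). They are called single-gene peaks here. Of the other peaks, 543 lay at ends shared by neighbouring genes, 1486 inside a gene away from its ends and 774 between genes. The series held 9474 peaks in 3 lists, 2909 of them for p53 and 1101 for p53 in K17KO skin. At the limit of the rule, the 3 peaks just inside it were at Gpbp1 (1000 bp, 1.26-fold), Calca (999.5 bp, 3.70-fold) and Fbxo32 (999.0 bp, 1.48-fold). The 3 just outside it were at Ocln (1003.0 bp, 1.46-fold), Tsc22d3 (1003.5 bp, 1.79-fold) and Igf1r (1004.0 bp, 1.30-fold).

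The 12 samples were back skin of mice 8 to 10 weeks old, all labelled as treated with 5 Gy of ionizing radiation, including those named T0, and the design text places the skin in hair anagen, the growth phase of the follicle. Wild-type (WT) skin gave 2 H3K4me3 samples at T0 and 2 at 6 h, and 2 p53 samples at each of the same times. Skin labelled K17KO gave 2 p53 samples at T0 and 2 at 6 h, and no H3K4me3 sample. The sources used here do not give strain, sex, pooling of animals or any input or control library. The H3K4me3 list names no library, time or control, so a peak can mark a difference between libraries as well as the presence of the mark, and the 2 readings cannot be told apart. The first p53 list names its antibody alone, and its WT genotype was inferred from that. One list stands for all H3K4me3 libraries, so the values have no replicate error, no test across samples was possible, and intervals cover counting error only.

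H3K4me3 is laid down by the SET1 and MLL methyltransferase complexes, which are drawn to unmethylated CpG-rich DNA through CxxC zinc fingers. It marks the nucleosomes next to the start sites of active and poised genes, usually strongest on the nucleosomes just after the start, with a nucleosome-depleted gap at the start itself. In irradiated skin, p53 binds and switches on genes for growth arrest, apoptosis and repair.

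Promoter sequences of 8 genes with a single-gene peak at their start are shown as examples of features counted below: CpG content, p53 half-sites, clock E-boxes and sites for housekeeping factors. Each is the 250 bases before a RefSeq start of build GRCm38.p6, which has the coordinates of mm10, read 5′ to 3′ on the gene's strand. Capitals in the first pair mark CpG. Alkal2, a ligand of the receptors Alk and Ltk (chr12:30884074-30884323, plus strand), and Oas3, an interferon-induced oligoadenylate synthetase (chr5:120777660-120777909, minus strand), had peaks of similar fold, with 25 and 1 CpG in these bases.
Alkal2: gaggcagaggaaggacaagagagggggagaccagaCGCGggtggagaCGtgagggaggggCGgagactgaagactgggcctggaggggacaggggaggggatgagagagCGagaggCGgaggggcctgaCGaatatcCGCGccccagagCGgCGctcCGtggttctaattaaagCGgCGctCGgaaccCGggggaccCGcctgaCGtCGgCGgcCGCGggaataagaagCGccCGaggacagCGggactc
Oas3: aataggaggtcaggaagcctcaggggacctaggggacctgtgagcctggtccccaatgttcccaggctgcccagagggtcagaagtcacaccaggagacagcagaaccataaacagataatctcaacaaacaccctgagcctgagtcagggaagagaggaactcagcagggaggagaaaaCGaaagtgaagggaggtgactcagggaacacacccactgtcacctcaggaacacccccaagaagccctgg
In the next pair capitals mark a p53 half-site, the degenerate decamer that p53 binds as a pair. Bax, a pore-forming apoptosis protein (chr7:45466899-45467148, minus strand), holds it from 201 bases before the start, and Ccng1, cyclin G1 (chr11:40755287-40755536, minus strand), from 185 bases before. Both genes had an H3K4me3 peak that overlapped a p53 peak.
Bax: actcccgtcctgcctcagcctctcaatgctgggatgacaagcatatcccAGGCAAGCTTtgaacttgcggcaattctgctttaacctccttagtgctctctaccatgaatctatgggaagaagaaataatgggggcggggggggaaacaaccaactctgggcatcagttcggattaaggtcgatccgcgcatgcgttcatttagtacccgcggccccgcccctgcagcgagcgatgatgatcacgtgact
Ccng1: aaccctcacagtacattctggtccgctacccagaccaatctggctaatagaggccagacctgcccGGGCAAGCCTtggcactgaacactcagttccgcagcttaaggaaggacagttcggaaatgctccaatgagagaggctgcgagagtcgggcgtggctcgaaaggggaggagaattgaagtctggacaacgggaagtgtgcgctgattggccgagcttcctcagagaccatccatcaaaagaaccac
In the 2 clock promoters capitals mark the E-box CACGTG, the element bound by Clock and Bmal1. Cry1, a repressor of that pair (chr10:85185055-85185304, minus strand), holds 1, and Ciart, another repressor of the clock (chr3:95882229-95882478, minus strand), holds 3, at 116, 58 and 44 bases before the start.
Cry1: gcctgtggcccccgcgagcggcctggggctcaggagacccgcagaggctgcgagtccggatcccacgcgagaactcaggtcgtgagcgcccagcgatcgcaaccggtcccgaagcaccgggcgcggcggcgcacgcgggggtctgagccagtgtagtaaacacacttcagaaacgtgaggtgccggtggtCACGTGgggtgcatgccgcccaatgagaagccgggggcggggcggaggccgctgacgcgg
Ciart: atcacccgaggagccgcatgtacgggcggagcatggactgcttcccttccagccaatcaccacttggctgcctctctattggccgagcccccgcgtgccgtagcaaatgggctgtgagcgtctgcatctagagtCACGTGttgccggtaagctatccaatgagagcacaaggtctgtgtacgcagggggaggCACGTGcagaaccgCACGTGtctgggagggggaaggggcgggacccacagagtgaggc
The last pair are ribosomal protein promoters. Capitals mark an ETS site (CCGGAAG on the other strand) in Rps7 (chr12:28635954-28636203, minus strand) and a GC box (GGGCGG on the other strand) in Rps19 (chr7:24884342-24884591, plus strand).
Rps7: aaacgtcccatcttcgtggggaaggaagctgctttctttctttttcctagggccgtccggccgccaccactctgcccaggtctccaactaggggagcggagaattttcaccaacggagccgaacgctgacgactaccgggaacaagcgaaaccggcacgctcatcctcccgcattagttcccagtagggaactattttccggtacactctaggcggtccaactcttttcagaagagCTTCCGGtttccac
Rps19: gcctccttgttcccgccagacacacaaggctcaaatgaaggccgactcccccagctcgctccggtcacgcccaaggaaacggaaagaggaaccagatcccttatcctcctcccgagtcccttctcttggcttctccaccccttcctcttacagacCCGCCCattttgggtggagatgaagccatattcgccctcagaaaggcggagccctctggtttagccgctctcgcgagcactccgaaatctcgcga

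The single-gene peaks had many fragments, a narrow spread of fold and a high background. The fold of a peak is the authors' value, the fragments piled up at its summit plus 1 over the peak caller's expected number (the background) plus 1, and both numbers were recovered from the deposited fold and p-value. The median single-gene peak had 185 fragments over a background of 120, a fold of 1.55 (quartiles 1.42 and 1.77, range 1.22 to 6.47) and a width of 345 bp (238 to 1793 bp). Over all H3K4me3 peaks the medians were 148 fragments, a background of 90.7, a fold of 1.66 and a width of 334 bp. Peaks between genes stood at 34.5 fragments over 11.8 and 2.58-fold, and peaks inside genes at 70.5 over 34.6 and 1.95-fold. Peaks shared by neighbouring gene ends, with 193 fragments over 126 and 1.54-fold, were the nearest in all 3 values. A fold of 2 or more was reached by 13.4% of the single-gene peaks (356 peaks), by 5.89% of shared peaks, 48.3% of those inside genes and 71.2% of those between genes. A q-value of at most 0.01 was held by 1975 of the 2661 (74.2%) and by 72.5% of all H3K4me3 peaks, so the low folds at gene ends did not come with fewer low q-values.

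Fold fell with background among the single-gene peaks (Spearman's rho -0.78 over 2661 peaks). This is a description across peaks that share libraries and the caller's threshold, which lets a low fold through only where many fragments were counted. The 105 peaks with a background under 10 fragments had a median fold of 3.52, and the 653 with a background over 150 had a median of 1.38. A background over 50 fragments was seen at 83.3% of the single-gene peaks and 64.5% of all H3K4me3 peaks. Fragments above background, the difference of both numbers, had a median of 58.6 at single-gene peaks, 62.9 at shared peaks, 33.8 inside genes and 20.7 between genes. By this measure the order of the classes was opposite to that of the folds. Fragments above background rose with background, with a rho of 0.51 at single-gene peaks and 0.78 over all H3K4me3 peaks. Both measures are thus tied to background, and the classes were not compared at equal background.

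**Figure D1:**
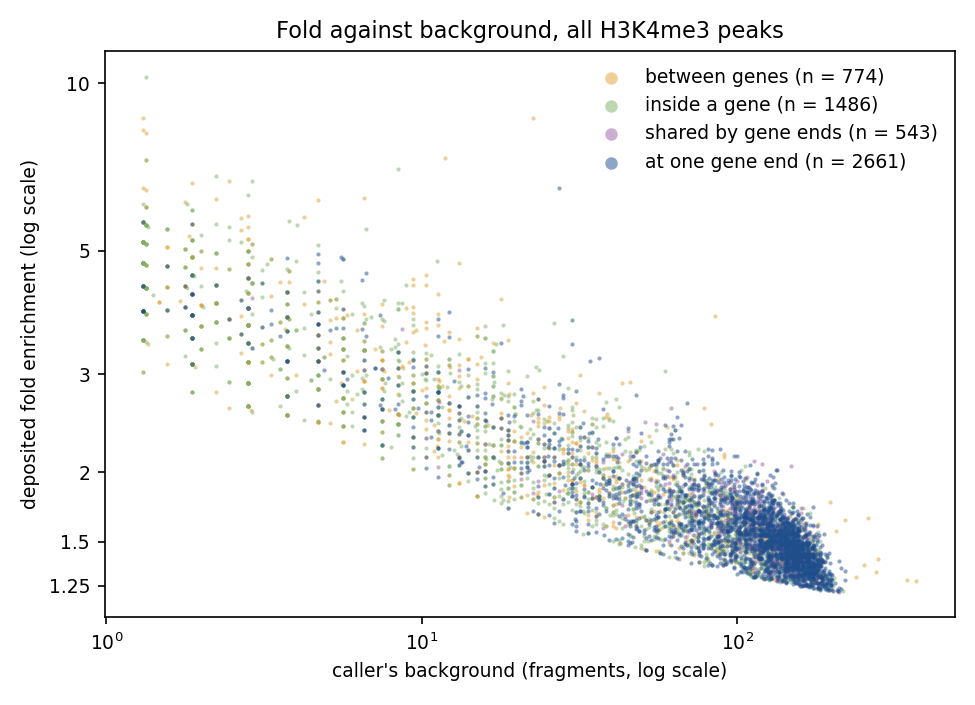
Each point is 1 H3K4me3 peak, with the caller's background in fragments on the x axis and the deposited fold on the y axis, both on log scales, coloured by position class. The 2661 peaks at a single gene end crowd at the lower right, where the median background was 120 fragments and the median fold 1.55.

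The highest folds belonged to peaks with few fragments, with 1 exception. The peak at Lars2, the mitochondrial leucyl-tRNA synthetase (chr9:123461812-123462156), had 181 fragments over 27.1 and a fold of 6.47, and it lay 692 bp from the gene's 3′ end. Svop, a synaptic vesicle protein (chr5:114090965-114091481), followed with 12 fragments over 1.31 and 5.63-fold, and Paqr8, a progestin receptor, with 15 over 1.87 and 5.58-fold. Next came Meis2, a homeobox factor, at 4.93-fold, Cd200r1, an inhibitory receptor of myeloid cells, at 4.88-fold, and Adra1a, an adrenergic receptor, at 4.85-fold. Krt1, the keratin of differentiated epidermis (chr15:101850417-101850734), had 31 fragments over 5.61 and 4.84-fold. Alkal2 stood at 4.76-fold, the nucleoside transporter Slc28a2 at 4.69-fold and Oas3 at 4.56-fold. None of these 10 peaks but that of Lars2 held more than 34 fragments. The peaks with most fragments had low folds: 1810013L24Rik with 300 (1.73-fold), Pnrc1, a nuclear receptor coactivator, with 293 (1.33-fold), the splicing factor Rbm39 with 292 (1.39-fold), the autophagy receptor Tax1bp1 with 292 (1.55-fold) and the chaperone Hsp90ab1 with 287 (1.60-fold).

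The rule did not distinguish the start of a gene from its end, and nearly all the peaks were at starts. Strand was known for the genes of 2106 peaks, through the RefSeq promoter table, and not for the other 555 (20.9%). Of the 2106, 2015 lay at the start only (95.7%, 94.7 to 96.5%), in 1945 genes. Another 44 lay at the end only (2.09%), and 47 within reach of both ends of a short gene (2.23%). The end-only peaks had a median fold of 2.13 over a background of 30.4 fragments, against 1.54 and 124 for the start peaks. Txnip, an inhibitor of thioredoxin and of glucose uptake, had such a peak at its end (chr3:96561013-96561717, 110 fragments over 34.0, 3.17-fold) and 2 more around its start (1.77 and 1.63-fold). No end-only peak was within 1000 bp of another start of its own gene in the promoter table, and 3 were within that distance of a start of any gene in it.

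The start peaks rarely covered the start itself and sat just after it. The midpoint was downstream of the start in 1809 of 2015 peaks (89.8%, 88.4 to 91.1%), at a median of 304 bp (quartiles 231 and 438 bp), and the median summit was at 256 bp. The bin from 200 to 300 bp held 592 peaks and that from 300 to 400 bp held 462, together 52.3% of the start peaks. Within 100 bp of the start there were 70 midpoints (3.47%), and only 135 peaks (6.70%) covered the start. A second, lower rise upstream had its highest bin, 52 peaks, at 300 to 400 bp before the start, with 9 peaks between 100 and 200 bp before it. The pattern has the shape of a flanked gap, with far more of these peaks on the downstream side. The rule leaves out peaks that also lie near a neighbouring gene's end. Whether this takes out more upstream than downstream peaks was not tested. Downstream peaks had a median of 196 fragments over 128 and 1.53-fold. Upstream peaks had 142 over 82.3 and 1.67-fold. A noncoding gene also ended or began within 1000 bp of 15.4% of the start peaks. Measured from the nearest start of the promoter table instead of the outer end of the gene, 85.8% of midpoints were downstream.

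**Figure D2:**
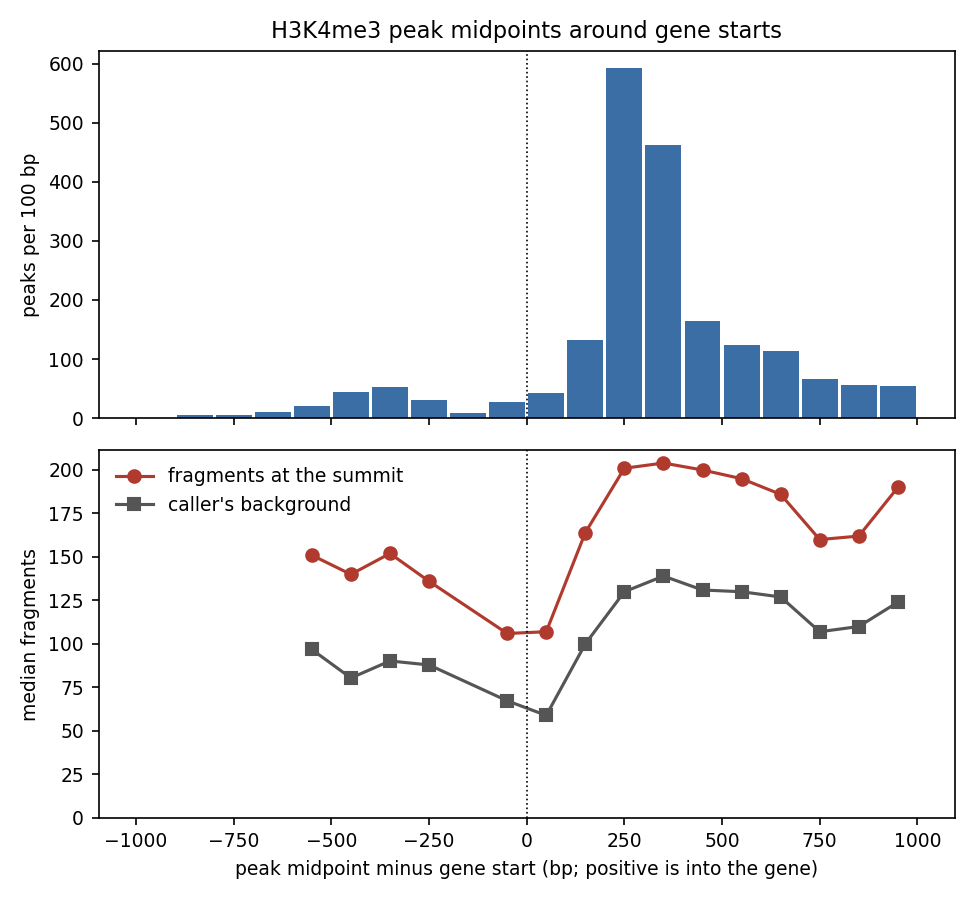
The upper panel counts start peaks per 100 bp of distance from the midpoint to the gene start, negative values being upstream, and the lower panel gives the median fragments at the summit and the median background of the bins with at least 20 peaks. The bins at 200 to 400 bp downstream hold 592 and 462 peaks, a smaller rise of 52 peaks lies 300 to 400 bp upstream, and both medians dip at the start.

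In 55 genes the start was flanked by a peak on each side, a median of 813 bp apart (480 to 1406 bp). The upstream peak had the higher fold in 37 of the 55 (median 1.59 against 1.48), and the downstream peak the higher background in 47 (median 153 against 86.9 fragments). At Cdkn1b, the cell cycle inhibitor p27, the upstream peak 440 bp before the start had 214 fragments over 139 (1.53-fold), and the downstream one at 541 bp had 218 over 171 (1.27-fold). Its sides thus differed by background more than by fragments. Atf3, a stress-induced transcription factor, had 66 fragments over 34.6 upstream (1.88-fold) and 164 over 97.2 downstream (1.68-fold). Dicer1, the microRNA processing nuclease, had 109 over 69.2 upstream (1.57-fold) and 220 over 162 downstream (1.36-fold). Brip1, a DNA repair helicase, went the other way, with 1.59-fold upstream and 2.14-fold downstream. Suz12, a Polycomb subunit, Ppargc1a, a coactivator of mitochondrial genes, and Ppm1d, the p53-induced phosphatase, were also among the flanked starts.

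Genes with a start peak had CpG-rich promoters more often than protein-coding genes in general. A promoter of 300 bases (250 before and 50 after the start) was called CpG-rich at an observed over expected CpG of at least 0.6 and a GC content of at least 50%. That held for 1484 of the 1945 genes with a start peak (76.3%, 74.3 to 78.2%), against 45.8% of all 17492 protein-coding genes with an entry and 41.9% of the genes without a start peak. The median promoter of a gene with a start peak had 23.0 CpG, an observed over expected value of 0.797 and 62.3% GC. Over all promoters these were 13.0, 0.577 and 56.3%. Read the other way, 18.5% of CpG-rich promoters and 4.86% of CpG-poor promoters had a start peak. The peaks at CpG-poor promoters had a median fold of 1.64 over a background of 93.5 fragments, and those at CpG-rich promoters 1.52 over 129. Among genes whose start peak reached 2-fold, 50.6% (117 of 231) had a CpG-rich promoter, against 79.8% of those under 2-fold. The genes with a start peak were also longer, with a median of 27.0 kb against 16.9 kb for all protein-coding genes with known strand. Peaks within reach of both ends do not count as start peaks, which takes short genes out of the first group only. Its part in the difference was not tested.

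**Figure D3:**
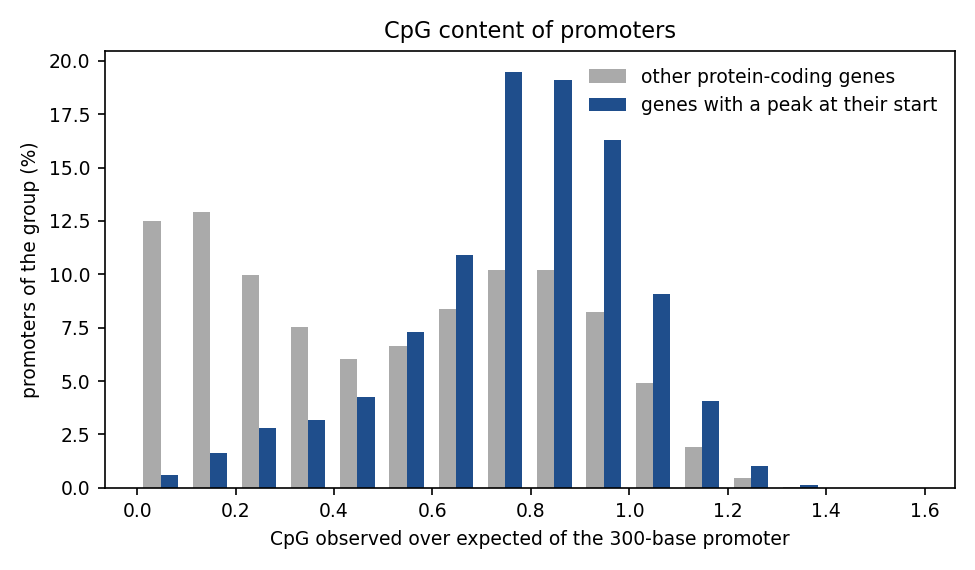
Bars give the percent of promoters in each bin of 0.1 of observed over expected CpG, for the 1945 genes with a start peak and for all other protein-coding genes in the promoter table. The genes with a start peak have their highest bars between 0.7 and 1.0, and the others have a second mode under 0.3.

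Motifs were searched on both strands of the same 300 bases, and a base could count for several motifs. The GC box GGGCGG, bound by Sp1, was in 72.0% of the promoters with a start peak and 46.3% of all promoters. The ETS site CCGGAAG was in 18.3% and 11.9%, the E-box CACGTG in 11.1% and 7.91%, and the cyclic AMP response element TGACGTCA in 3.24% and 2.33%. The sites of NRF1 and YY1, searched as single exact words, were in 2.52% and 1.65%, against 1.33% and 0.972% of all. The CCAAT box was at about the same share in both, 40.8% and 39.2%. Shares were lower in promoters with a start peak for the TATA box TATAAA (6.99% against 13.3%), the AP-1 site TGANTCA (3.96% against 7.03%), the D-box TTATGNAA (1.65% against 3.21%) and the p53 half-site (5.66% against 7.32%). The motifs richest in CpG or GC were thus the more frequent ones, in promoters that are themselves richer in CpG, and the part of base composition in these shares was not tested. Among genes with a start peak of at least 2-fold the TATA box stood at 11.7%, against 6.36% for those under 2-fold, and the ETS site at 5.63% (13 of 231), against 342 of 1714.

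Of the 21887 protein-coding genes, 2551 had at least 1 single-gene peak, or 11.7%. Most, 2443, had 1 peak, 106 had 2, and Txnip and the apoptosis gene Pmaip1 had 3. The share by chromosome ran from 7.88% on chromosome 7 to 15.9% on chromosome 13 among autosomes. It was 4.55% on X (44 of 966 genes), and no gene of the 256 on Y had one, which allows a share of up to 1.43%. Gene lists by function were read against the share of 11.7%. The lists are small, and a difference between a list and all genes was not tested. Taking only the upper 50% of H3K4me3 peaks by fold left 897 of the 21887 genes with a peak (4.10%). Under that filter 13 p53 target, 8 clock, 8 cell cycle, 7 glucocorticoid, 4 oxidative stress and 4 hair follicle stem cell genes had one, as did 3 immediate early, 3 interferon, 2 heat shock, 2 ribosomal protein and 1 DNA repair gene.

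**Figure D4:**
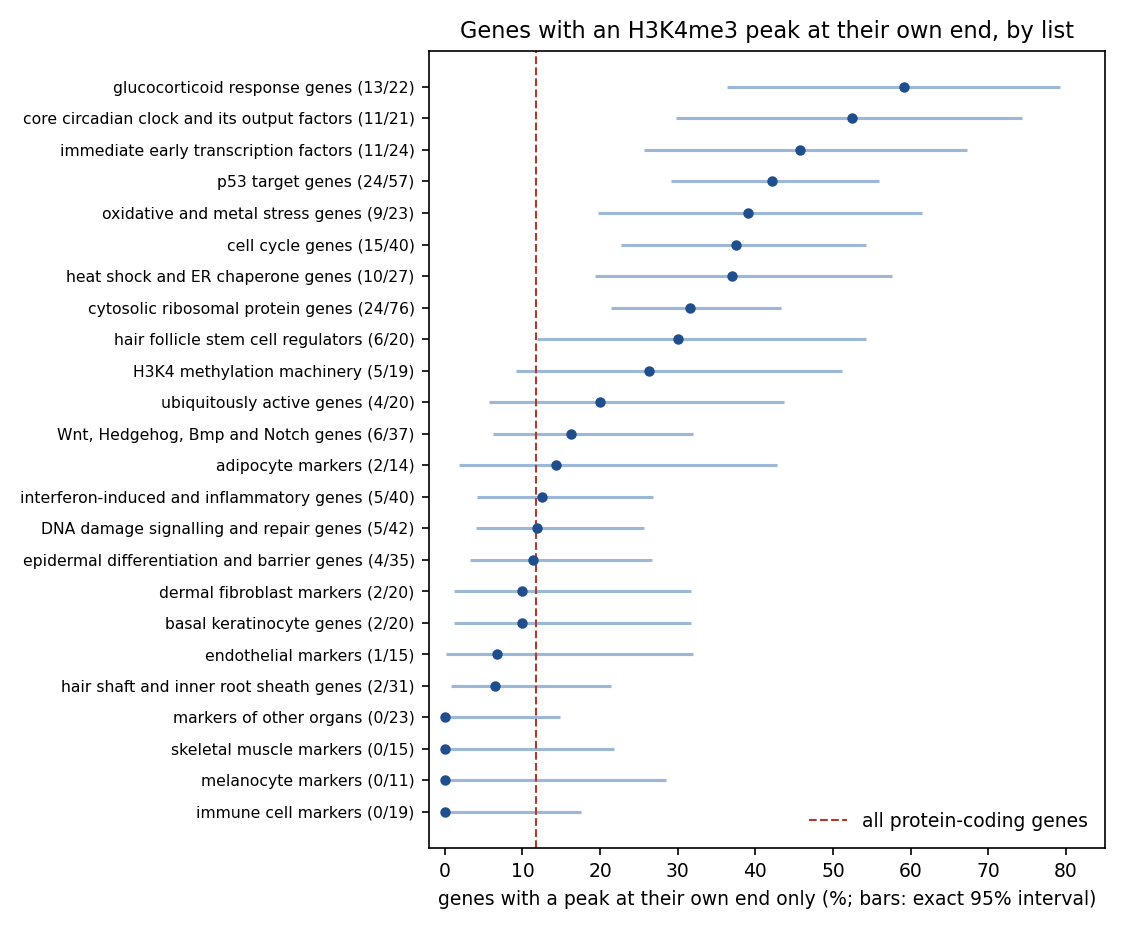
Each point is the percent of a list's genes with a single-gene H3K4me3 peak, with its exact Clopper-Pearson 95% interval as a bar and the counts in brackets, and the dashed line is the share of all protein-coding genes, 11.7%. Glucocorticoid, clock, immediate early and p53 target genes have the highest shares, and immune, melanocyte, muscle and other-organ markers have none.

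Among p53 target genes, 24 of 57 had a single-gene peak (42.1%, 29.1 to 55.9%). Another 7 had at their ends only a peak shared with a neighbour, and 26 had no peak at an end. Peaks deeper inside a gene were not counted here. Their 35 peaks had a median fold of 1.63 and 10 of the 24 genes had 2 or more peaks (41.7%), against 108 of 2551 genes with a peak overall (4.23%). Such genes also numbered 4 of 11 on the immediate early list, 3 of 13 on the glucocorticoid list and 3 of 9 on the oxidative stress list. The receptor genes Eda2r, Tnfrsf10b and Fas stood highest by fold. Eda2r, a receptor of ectodysplasin A2 (chrX:97376055-97377186), had 34 fragments over 10.3 and 3.10-fold. Tnfrsf10b, the TRAIL receptor, had 164 over 64.5 (2.52-fold) in one peak and 66 over 26.9 (2.40-fold) in the other. Fas had 59 over 25.2 (2.29-fold) and 73 over 39.3 (1.84-fold). Pmaip1, the BH3-only protein Noxa, had 3 peaks of 2.26, 1.80 and 1.59-fold. Bax, an effector of apoptosis, had 215 over 140 (1.53-fold) and the nuclease Aen 229 over 127 (1.79-fold).

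The growth arrest and feedback genes of p53 had folds from 1.27 to 1.91. Btg2, an antiproliferative gene (chr1:134077381-134079014), had 239 fragments over 152 (1.56-fold), and Ccng1 (chr11:40754624-40755196) 228 over 152 (1.49-fold). Plk2, a stress-induced kinase, had 194 over 152 upstream (1.27-fold) and 234 over 131 downstream (1.78-fold). Ppm1d had 140 over 72.9 upstream (1.91-fold) and 240 over 179 downstream (1.34-fold). The 2 genes thus differed in which side of the start had the higher fold. Trp53inp1, a p53-induced nuclear protein, had peaks of 1.68-fold (155 over 91.6) and 1.63-fold (243 over 149). Of the repair and metabolic targets, Ephx1, an epoxide hydrolase, had 2.22 and 2.13-fold, Dcxr, a carbonyl reductase, 2.20-fold, Sesn2, an antioxidant regulator, 1.71 and 1.53-fold, Ddb2, a damage sensor of nucleotide excision repair, 1.58-fold and Rrm2b, a ribonucleotide reductase subunit, 1.45-fold. Several best-known targets had no single-gene peak. The nearest H3K4me3 peak of Cdkn1a, the cell cycle inhibitor p21, was 3592 bp from an end of the gene (1.60-fold), that of Mdm2, the ubiquitin ligase of p53, 1684 bp (3.40-fold) and that of Bbc3, the BH3-only protein Puma, 1424 bp (1.72-fold), all inside the gene. Trp53 itself had only a peak shared with Wrap53 (1.37-fold).

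Clock genes were covered at 11 of 21 (52.4%, 29.8 to 74.3%). Per2, a core repressor (chr1:91458633-91459300), had 186 fragments over 69.2 and 2.66-fold. The output factors Hlf and Tef, which bind D-boxes, had 80 over 35.6 (2.21-fold) and 89 over 41.1 (2.14-fold). Lower folds stood at Ciart (1.75), Cry1 (1.75), Nr1d1 (1.71), Cry2 (1.71), Bhlhe40 (1.60), Bhlhe41 (1.58) and Per1 (1.54). The Per, Cry, Ciart, Nr1d1 and Bhlhe genes are repressors of the clock, and the share of repressors among the 21 genes of the list was not counted. Dbp, the third D-box factor, had only a peak shared with Car11 (2.46-fold). With a window of 500 bp instead of 1000 bp, 7 of the 21 clock genes had a peak, beside 9.96% of all protein-coding genes. The E-box CACGTG was in 5 of the 8 clock promoters with a start peak (Cry1, Per1, Tef, Ciart and Bhlhe41) and in 0 of the 9 clock promoters without one, beside 7.91% of all promoters. This split was picked out after its values were seen, and the promoter entry of Per1 belongs to a start inside the gene.

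Glucocorticoid response genes had peaks at 13 of 22 (59.1%, 36.4 to 79.3%). With the 500 bp window 6 of the 22 had one, beside 9.96% of all protein-coding genes. Pdk4, the kinase that shuts off pyruvate oxidation, had 99 fragments over 37.4 (2.60-fold). Mt2, a metallothionein, had 109 over 44.9 upstream (2.40-fold) and 156 over 81.3 across its short body (1.91-fold), and its neighbour Mt1 had 1.64 and 1.48-fold. Tsc22d3, the leucine zipper Gilz, had 65 over 27.8 (2.29-fold), and Zbtb16, a zinc finger repressor, 82 over 40.3 (2.01-fold). Angptl4, an inhibitor of lipoprotein lipase, had 152 over 77.6 (1.95-fold). The classical targets Fkbp5 (1.35-fold), Dusp1 (1.54-fold), Sgk1 (1.69-fold, at its end), Klf9 (1.58-fold) and Per1 were lower. Ddit4, an inhibitor of mTORC1, had 1.83-fold upstream and 1.61-fold over the gene.

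Stress lists followed. Immediate early transcription factors had peaks at 11 of 24 (45.8%). With q-values of at most 0.01 this was 6 of 24, beside 8.75% of all protein-coding genes. Their highest folds were 1.91 at Myc, 1.88 at Atf3, 1.70 at Fosb and 1.56 at Fos. Jun, Junb, Klf4 and Atf3 had 2 peaks each. Oxidative and metal stress genes had peaks at 9 of 23 (39.1%), led by Txnip (3.17-fold), Mt2 (2.40-fold), the quinone reductase Nqo1 (2.28-fold) and the heme oxygenase Hmox1 (1.89-fold). Heat shock and chaperone genes of the endoplasmic reticulum (ER) had 10 of 27 (37.0%), with 1.73-fold at both Dnajb1 and Hsp90aa1 and 1.60-fold at both Hsp90ab1 and Pdia6. Hspa1a, the inducible Hsp70, had 178 fragments over 122 (1.46-fold), though it has a near-identical neighbour, so the placing of its reads is uncertain. The 5 interferon and inflammatory genes with a peak, of 40 (12.5%), included Irf7 (2.20-fold), the RNA sensor Ddx58 (1.95-fold), the NF-κB subunit Relb (1.91-fold) and Icam1 (1.55-fold). This share was near that of all genes, as was that of DNA repair genes, 5 of 42 (11.9%), where Ercc2 (1.85-fold), Rnf8 (1.63-fold), Ercc3 (1.63-fold) and Xpa (1.45-fold) stood highest.

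Ribosomal protein genes had many fragments and low folds. Cytosolic ribosomal protein genes had peaks at 24 of 76 (31.6%, 21.4 to 43.3%), with a median fold of 1.43, and the highest were Rps16 (1.74), Rpl3 (1.68), Rpl11 (1.65) and Rps20 (1.65). Their 25 peaks had a median background of 154 fragments, against 120 for all single-gene peaks, and only 2 of the 76 genes had a peak in the upper 50% of H3K4me3 peaks by fold. ETS sites were in 6 of the 17 ribosomal promoters with a start peak and 16 of the 39 without one. Cell cycle genes had 15 of 40 (37.5%), led by the mitotic cyclin Ccnb2 (1.94-fold), the phosphatase Cdc25c (1.94-fold), the replication cyclin Ccne2 (1.92-fold) and the kinase Plk1 (1.86-fold). Their 16 peaks had a median fold of 1.67 over a median background of 97.7 fragments, against 1.55 and 120 for all single-gene peaks. Of the machinery of H3K4 methylation itself, 5 of 19 genes had a peak (26.3%): the CpG-binding subunit Cxxc1 (1.57-fold), the methyltransferase Kmt2c (1.50-fold), the demethylase Kdm5c (1.48-fold), and Wdr5 (1.42-fold) and Men1 (1.26-fold), subunits of the methyltransferase complexes. None of these 5 was in the upper 50% of H3K4me3 peaks by fold, and the Men1 peak did not reach a q-value of at most 0.1 (−log10 q 0.36). Among 20 ubiquitously active genes 4 had one, among them Hsp90ab1, Eif4a2 (1.51-fold) and B2m (1.35-fold), and 0 had one in the upper 50% by fold. Actb and Gapdh had none, with the nearest peak 8102 and 49427 bp from an end of the gene.

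Most marker lists of skin cell types had shares near the 11.7% of all genes, with wide intervals. Hair follicle stem cell regulators stood highest at 6 of 20 (11.9 to 54.3%), with the highest folds at Nfib (1.88), Id3 (1.77), Nfatc1 (1.75) and Id2 (1.71), and with Krt15, a keratin of the bulge, at 1.50. The Krt15 peak did not reach a q-value of at most 0.1 (−log10 q 0.46). With that limit 5 of the 20 had a peak, beside 10.6% of all protein-coding genes. Basal keratinocyte genes had 2 of 20, the integrin Itgb4 (1.80-fold) and the Notch ligand Jag2 (1.70-fold), and neither of the defining basal keratins Krt5 and Krt14 had one. Epidermal differentiation genes had 4 of 35: Krt1, the lipoxygenase Aloxe3 (1.67-fold), Klf4 (1.49-fold) and Cldn1 (1.45-fold). Hair shaft and root sheath genes had 2 of 31, Hoxc13 (1.96-fold) and Krt28 (1.95-fold), and Wnt, Hedgehog, Bmp and Notch genes 6 of 37, led by Wnt3 (1.90-fold), Bmp2 (1.81-fold), Sfrp1 (1.62-fold) and Wnt10a (1.62-fold). The peak nearest to Krt17 was 59140 bp away. Fibroblast markers had 2 of 20, Col1a2 (1.83-fold, 47 fragments over 25.2) and Col5a1 (1.35-fold), but 1 with peaks of q-values of at most 0.1 and 0 at 0.01. All protein-coding genes stood at 10.6% and 8.75% under these limits. Adipocyte markers had 2 of 14, Plin1 (1.86-fold, at its end) and Pnpla2 (1.48-fold), and endothelial markers 1 of 15, Tie1 (4.18-fold, 11 fragments over 1.87). No immune (19), melanocyte (11), skeletal muscle (15) or other-organ (23) marker had one, which by the exact intervals allows shares of up to 17.6%, 28.5%, 21.8% and 14.8%, so that each interval includes the 11.7% of all genes. In whole skin, fewer cells of a type and less of the mark per cell cannot be told apart, and since a peak can mark a difference between libraries, the list gives no check of the tissue label.

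The widest peaks reached far into their genes, and 8 of the widest 15 were at p53 or glucocorticoid targets. Of the 2661 single-gene peaks 15 were at least 1000 bp wide (0.564%, against 0.677% of all H3K4me3 peaks). Of these, 5 were at p53 targets, 3 at glucocorticoid targets and 7 at genes on none of the lists. Among all 2661 single-gene peaks, 35 were at p53 targets (1.32%) and 16 at glucocorticoid targets. Ddit4 was the widest at 1793 bp, then Btg2 (1634 bp), Slc19a2, a thiamine transporter induced by p53 (1558 bp), Rgcc, a regulator of the cell cycle (1357 bp), Phlda3, a repressor of Akt (1264 bp), Aen (1249 bp) and Angptl4 (1225 bp). The other 8 were at Gpx3, a secreted glutathione peroxidase, Synm, Dpf3, Eda2r, Fkbp5, Wnt7b, the Polycomb gene Pcgf5 and Glul, glutamine synthetase. Their folds ran from 1.35 to 3.10, and the midpoints of the 12 at starts lay 492 to 958 bp downstream. A wide peak therefore reached from near the start into the gene. At Btg2 the summit was 306 bp from the start although the midpoint was at 958 bp, and at Slc19a2 219 and 843 bp.

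Width was also counted at a lower limit. A width of at least 600 bp was reached by 107 single-gene peaks (4.02%), by 7 of 35 at p53 targets, 6 of 11 at clock genes and 8 of 16 at glucocorticoid targets, and by 0 of 25 at ribosomal protein genes and 1 of 16 at cell cycle genes. Start peaks with the midpoint 400 bp or more downstream made up 28.7% of all (579 of 2015), 14 of 24 at p53 targets (58.3%, 36.6 to 77.9%), 4 of 8 at clock genes, 4 of 8 at glucocorticoid targets, 2 of 18 at ribosomal protein genes (11.1%) and 1 of 12 at cell cycle genes (8.33%). Peaks of 1 gene share its start, so the 24 peaks are not independent. From the nearest start of the promoter table the share was 16.5% over all start peaks and 54.2% at p53 targets. The lists and the limits were chosen with values of these data known.

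**Figure D5:**
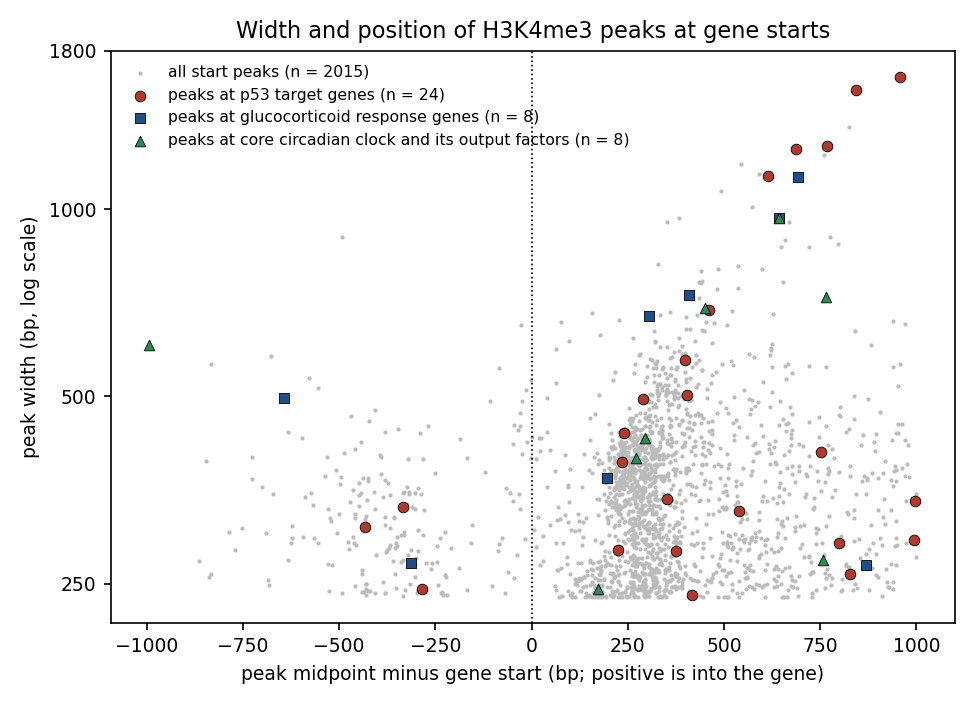
Each point is a start peak, with the distance of its midpoint from the gene start on the x axis (positive into the gene) and its width on a log y axis, and larger symbols mark peaks at p53 target, glucocorticoid response and clock genes. The widest peaks lie at the upper right, with Btg2 at 1634 bp and 958 bp from the start and Slc19a2 at 1558 bp and 843 bp.

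A few of the single-gene peaks overlapped a p53 peak. In WT skin these were 13 (0.489%, 0.260 to 0.834%), against 0.512% of all H3K4me3 peaks, and with the K17KO list 41 (1.54%, 1.11 to 2.08%), against 1.24%. Both shares were near the background of all H3K4me3 peaks. The p53 lists come from separate calls of different length, so the 2 counts were not compared as a change. Of the 13 overlaps with WT p53, 6 were at p53 target genes (46.2%), namely Bax, Phlda3, Ccng1, Trp53inp1, Slc19a2 and Plk2, and of the 41 with K17KO p53, 2 were (4.88%), Bax and Sulf2, a heparan sulfate sulfatase. The WT p53 peaks had a −log10 q of 7.41 at Bax and 6.70 at Phlda3. At Ccng1, Trp53inp1, Slc19a2 and Plk2 it was only 1.52, 1.42, 1.02 and 0.96. Over all single-gene peaks 35 were at p53 targets (1.32%). A test of the difference between the lists was not made.

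The strongest WT p53 peaks at these sites were at Bax (19 fragments over 1.98, 6.70-fold), Phlda3 (18 over 1.93, 6.49-fold) and Rps19 (31 over 3.97, 6.44-fold). The p53 summit lay 9 bp from the H3K4me3 summit at Bax, 230 bp from it at Phlda3 and 21 bp at Rps19, and 284, 94 and 245 bp downstream of the gene start. At Bax and Ccng1 the p53 summits were thus inside the gene and not at the half-sites shown for their promoters. Among p53 target genes the half-site was in 5 of the 17 promoters with a start peak and 8 of the 31 without one. Rabl2, a small GTPase, followed with 10 over 0.992 (5.52-fold), then the m6A reader Ythdc1 and the zinc finger gene Zfp110 with 8 over 0.906 each (4.72-fold). Ccng1 had 10 over 1.50 (4.40-fold), Hcfc2 7 over 0.906 (4.20-fold), Trp53inp1 11 over 1.98 (4.02-fold), Plk2 7 over 1.07 (3.86-fold) and Slc19a2 10 over 1.98 (3.69-fold). The interleukin receptor subunit Il1rap and Gfus had 5 fragments each, with a −log10 q of 0.38 at both. Over the 13 sites the median distance between both summits was 89.0 bp (2 to 360 bp). The sites were picked by overlap with an H3K4me3 peak, which itself bounds this distance and the place of the p53 summit.

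The p53 peaks of K17KO skin were set against H3K4me3 peaks of WT skin, which came from other animals. The highest were at Bicd1, a dynein adaptor (14 fragments over 0.956, 7.67-fold), the prolyl endopeptidase gene Prep (15 over 1.39, 6.69-fold) and Gpbp1 (12 over 0.945, 6.68-fold). Tsen15, a subunit of the tRNA splicing endonuclease, had 5.68-fold, Utp25 5.63-fold, Tspan3 5.44-fold, the spindle checkpoint gene Mad2l1 and the anaphase-promoting subunit Anapc1 5.21-fold each, Sulf2 5.19-fold and Tm9sf2 5.11-fold. Only Bax and Rps19 overlapped both p53 lists. At Bax the K17KO peak had 17 fragments over 2.87 (4.66-fold) and at Rps19 18 over 2.87 (4.91-fold). Ribosomal protein genes took 2 of the 41 sites, Rps19 and Rpl27 (8 over 0.956, 4.60-fold). Among the 30 at starts the p53 summit was a median of 382 bp downstream and never upstream. The H3K4me3 peaks they overlap were also never upstream (0 of 30, median 360 bp), so the overlap itself bounds this position. For the WT list the median was 284 bp. There the p53 summit was upstream at Plk2 alone, where the overlapped H3K4me3 peak was upstream too. The 2 medians were not compared. All p53 peaks here rest on 5 to 31 fragments except Sfi1 in the K17KO list, with 133 over 75.5 (1.75-fold).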

How the data were processed

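Chromatin immunoprecipitation libraries of 12 back skin samples in 6 groups of 2 were available as 3 peak lists on mm10, with no counts per sample. Peak names in the lists carry the name MACS2, and Bowtie2 2.2.5, SAMtools 1.7 and MACS2 2.1.2 are named per the submitters' processing notes, without role or order. The sources used here do not give the control, the call threshold, the pooling of replicates or the depth of the libraries. Each deposited list gives the authors' fold ratio, score, −log10 p-value and −log10 q-value per peak, and a score equals 10 times the −log10 p without decimals. Fragments and background were solved from fold and p-value for 100.0% of peaks, to within 0.001 in −log10 p, with a pseudocount of 1. No column of another sample was left out (0).

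Peaks were assigned by midpoint to the 21887 protein-coding genes of the RefSeq gene table. Promoters and strand came from the RefSeq promoter table of GRCm38.p6, in which 17492 of these genes (79.9%) and 2024 of the 2551 genes with a peak were matched by gene identifier, and where a gene had several entries the one nearest its outer end was used. Overlap with a p53 peak was at least 1 bp. Shares carry exact Clopper-Pearson 95% intervals, except the limit for olfactory receptor genes, which is an approximate one-sided 95% limit. Analyses used Python 3.11.15, pandas 2.3.3, NumPy 2.4.6, SciPy 1.17.1 and Matplotlib 3.10.9, and the assignment, recovery, overlap and motif steps were tested on simulated data. For the recovery step the simulated ratios of fragments to background were higher than the folds of most single-gene peaks.

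Named were the 10 peaks of highest fold, the 5 with most fragments, the 5 widest, genes with most peaks, all overlaps with the WT p53 list and the 10 of highest p53 fold with the K17KO list, up to 4 genes of highest fold per list, 12 genes named in any case and the peaks at the limit of the rule. Other genes were named after their values were seen, and 2 genes that the rule names are not reported here. The 24 gene lists (671 entries, 660 genes, all matched) and the peaks described were chosen with earlier results of these data known. Alternatives were other windows (500 bp and 2 kb), the summit in place of the midpoint, q-value limits, the upper 50% of peaks by fold, another overlap and, added after the data were seen, another start and other width limits.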

Additional observations from a re-analysis of the deposited data

How the results depend on the processing

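No paired analysis was possible because the peak lists carry no replicate numbers and no sample columns. With the upper 50% of all H3K4me3 peaks by fold there were 915 single-gene peaks in place of 2661, with a median fold of 1.90, 115 fragments and 320 bp of width, 65 list genes with a peak (of 156), 13 p53 target genes (of 24), and overlaps with 3 WT and 12 K17KO p53 peaks (of 13 and 41). The share at a start was then 90.9% and the share downstream 83.8%. The median fold was 1.61 at q-values of at most 0.01 and 1.57 at 0.1. Median fragments were 179 in a 2 kb window and 190 in a 500 bp window, and the 2 kb window put 93.1% at a start. Measured from the nearest promoter-table start, 85.8% were downstream and 16.5% lay 400 bp or more downstream (28.7% in the report), and with q-values of at most 0.01 the latter was 25.6%. A WT p53 peak within 1 kb was found for 26 peaks, and a width limit of 600 bp gave 107 wide peaks. Of 138 counts for single lists under the alternatives, 115 were within 1.5 times the reported count, and 14 of the other 23 came from the upper 50% by fold. Depth per library is unknown, there is no replicate error, and peaks of low fold are seen only where many fragments were counted.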

Other observations

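Core and linker histone genes, a group picked out after its values were seen, had single-gene peaks at 27 of 67 genes (40.3%), and 32 more had only a peak shared with a neighbouring gene. The 29 single-gene peaks at histone genes had a median of 135 fragments over a background of 69.2. Their median fold was 1.90 (1.48 to 2.43), with 28 at 1.5-fold or more, beside a median of 1.55 over all single-gene peaks. The highest were H3c11 (163 fragments over 66.4, 2.43-fold), H2ac4 (2.10-fold), H4c6 (2.09-fold) and H3c3 (2.08-fold). Of the 29, 26 lay on chromosome 13, where the large histone cluster is, and 26 were within reach of both ends, these genes being short. Histone genes are near-identical copies, so the placing of reads among them is uncertain. Olfactory receptor genes, silent outside the nose, had a single-gene peak at 0 of 1110 genes, beside 11.7% of all protein-coding genes. This allows a share of up to 0.270%.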
